A study of Mus musculus with 2 samples.

Results

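The TRBV13 family of the mouse T cell receptor β chain (TRB) was examined in TCR transcripts of single thymic CD4 SP T cells. Its members were taken by V gene call, as every productive TRB contig called TRBV13-1, TRBV13-2 or TRBV13-3, together with every contig under the joint call TRBV12-2+TRBV13-2, which names a pair of neighbouring genes at once. These 4 calls, of 22 TRBV calls seen, held 1905 of the 9322 TRB chains. In the library from WT mice they made up 852 of 4141 chains, in 846 of 4040 cells. The library from Btla-/- mice held 1053 of 5181 chains, in 1046 of 5077 cells.

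The WT mice were of strain C57BL/6J and the others of strain C57BL/6-Btla KO, in which Btla, the gene of an inhibitory receptor of lymphocytes, is knocked out in the germline. Both were aged 8–12 weeks, and how many animals gave each library is not given in the sources used here. CD4 SP T cells were enriched from thymocyte suspensions by negative selection with a kit meant for naive CD4+ T cells, and only TCR contigs were analysed here, so the cell type was not checked against marker genes. With 1 library per genotype there was no test between genotypes. Shares are therefore given with exact (Clopper-Pearson) 95% intervals, which cover counting error only. The median TRB contig rested on 13 unique molecular identifiers (UMIs, each standing for 1 captured transcript) in WT and 10 in Btla-/-. The libraries shared 30 cell barcodes, and 7 of these carried a family chain in WT and 2 in Btla-/-.

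A β chain gene is assembled in the thymocyte from a V, a D and a J segment. The V segment encodes the loops CDR1 and CDR2, while CDR3 is made where the end of V, the D segment and the start of J are joined, with bases trimmed and added. The TRBV13 genes encode the β chains long known as Vβ8, which respond to staphylococcal enterotoxin B and which often pair with the invariant TRAV11–TRAJ18 α chain of natural killer T (NKT) cells.

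On GRCm38 the family lies on chromosome 6, on the plus strand, interleaved with the TRBV12 genes in the order TRBV12-1, TRBV13-1, TRBV12-2, TRBV13-2, the pseudogene TRBV12-3 and TRBV13-3. From the start of TRBV12-1 to the end of TRBV13-3 this took 17036 bases, and 2031 bases lay between the annotated end of TRBV12-2 and the start of TRBV13-2. The part of the V exon that encodes the mature receptor is shown for the 3 genes, since the comparison of calls turns on it. For TRBV13-2, capitals mark in turn the bases of CDR1, of CDR2 and of the germline start of CDR3. For TRBV13-1 and TRBV13-3, capitals mark the bases that differ from TRBV13-2.
TRBV13-2, chr6:41121547-41121832: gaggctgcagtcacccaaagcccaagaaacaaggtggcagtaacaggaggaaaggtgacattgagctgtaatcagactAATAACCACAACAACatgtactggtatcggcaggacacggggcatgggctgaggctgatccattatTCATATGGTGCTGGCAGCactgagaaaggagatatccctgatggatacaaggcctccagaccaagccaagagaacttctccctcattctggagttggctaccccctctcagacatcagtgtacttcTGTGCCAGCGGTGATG
TRBV13-1, chr6:41116183-41116468: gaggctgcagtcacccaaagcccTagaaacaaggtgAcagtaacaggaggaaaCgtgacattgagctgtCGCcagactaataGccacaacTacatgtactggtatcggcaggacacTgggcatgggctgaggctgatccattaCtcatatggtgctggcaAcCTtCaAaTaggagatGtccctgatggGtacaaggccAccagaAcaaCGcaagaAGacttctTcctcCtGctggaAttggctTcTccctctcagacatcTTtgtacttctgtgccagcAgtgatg
TRBV13-3, chr6:41130300-41130585: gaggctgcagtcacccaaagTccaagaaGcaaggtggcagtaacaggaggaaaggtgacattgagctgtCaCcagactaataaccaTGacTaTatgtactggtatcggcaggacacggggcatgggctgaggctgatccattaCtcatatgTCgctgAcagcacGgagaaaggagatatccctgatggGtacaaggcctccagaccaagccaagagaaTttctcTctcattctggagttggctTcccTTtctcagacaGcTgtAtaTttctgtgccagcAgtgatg

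Over these 286 bases TRBV13-1 differed from TRBV13-2 at 33 bases (88.5% identity) and TRBV13-3 at 24 (91.6%). The differences reached the loops that face the peptide and its MHC molecule. CDR1 differed from that of TRBV13-2 at 2 of 15 bases in TRBV13-1 and at 4 in TRBV13-3, and CDR2 at 1 of 18 bases in TRBV13-1 and at 3 in TRBV13-3. The last 16 germline bases, which open CDR3, differed at 1 base, shared by TRBV13-1 and TRBV13-3, as the next lines show with that base in capitals.
TRBV13-2 and joint call: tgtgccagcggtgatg
TRBV13-1 and TRBV13-3: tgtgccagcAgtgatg

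Counted by chains, the joint call was the most frequent of all 22 TRBV calls in both libraries. It held 328 chains in WT, or 7.92% of TRB chains (7.12–8.79), and 405 in Btla-/-, or 7.82% (7.10–8.58). TRBV13-1 followed within the family, with 253 chains in WT (6.11%, 5.40–6.88) and 347 in Btla-/- (6.70%, 6.03–7.41). TRBV13-3 held 188 chains in WT (4.54%, 3.93–5.22) and 191 in Btla-/- (3.69%, 3.19–4.24). The call TRBV13-2 on its own was the rarest of the 4, with 83 chains in WT (2.004%, 1.60–2.48) and 110 in Btla-/- (2.12%, 1.75–2.55).

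Counted by UMIs in place of chains, TRBV13-1 stood above the joint call, with 7.73% against 7.52% of TRB UMIs in WT and 8.62% against 7.196% in Btla-/-. Counted by chains, the order of the 4 calls was the same in both libraries, and within each library the intervals of neighbours in it did not overlap, except those of the joint call and TRBV13-1 in Btla-/-, which met between 7.10% and 7.41%. No call had intervals apart between the genotypes, against 2 of the 22 TRBV calls (9.09%) in the whole table. The ratio farthest from 1 was that of TRBV13-3, whose share in Btla-/- was 0.812 times that in WT, with overlapping intervals. Chains with the TRBV13-2 V region, under either call, made up 9.93% of TRB chains in WT (9.03–10.9) and 9.94% in Btla-/- (9.14–10.8).

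**Figure D1:**
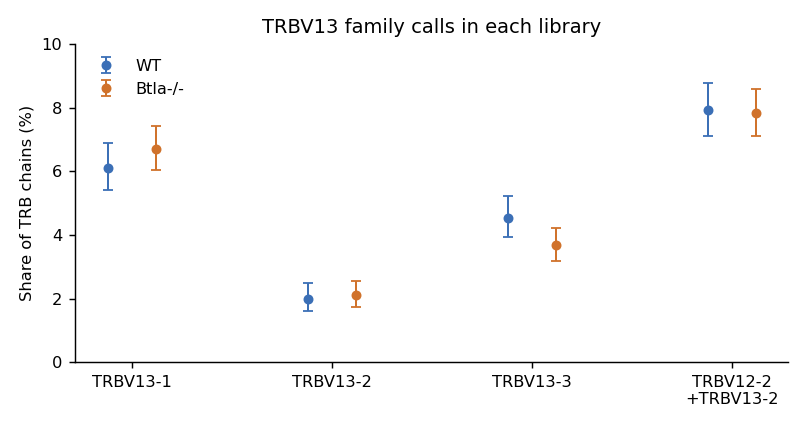
Share of TRB chains (%) under each of the 4 family calls in the WT and Btla-/- libraries, with exact 95% intervals. The joint call lies near 8% in both libraries, TRBV13-2 alone near 2%, and the intervals of the genotypes overlap for every call.

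Every chain under the joint call carried the V region of TRBV13-2. From framework 1 to framework 3, the 270 bases before CDR3, all 328 WT and 405 Btla-/- joint chains matched germline TRBV13-2 base for base, as did all 83 and 110 chains called TRBV13-2. The calls TRBV13-1 and TRBV13-3 likewise matched their own genes, apart from 1 TRBV13-1 chain in WT and 1 TRBV13-3 chain in Btla-/-. Of the chains with the TRBV13-2 V region, the joint call took 79.8% in WT (75.6–83.6) and 78.6% in Btla-/- (74.8–82.1).

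The calls differed in the rest of the contig. Outside the stretch from framework 1 to the end of the J segment, a contig holds the leader, the bases before it and the part of the constant region that was read, and their summed length was taken from the deposited contig length. Joint contigs had a median of 227 such bases in WT (quartiles 225 and 228) and 226 in Btla-/- (224 and 228). TRBV12-2 contigs, which belong to the neighbouring gene and to no family member, had medians of 227 in both libraries. Contigs called TRBV13-2 were shorter and more spread out, with a median of 193 bases in WT (179 and 208) and 184 in Btla-/- (178 and 203). TRBV13-3 contigs lay close to these, at medians of 183 and 182, and TRBV13-1 contigs at 171 in both libraries. The range between the percentiles 5 and 95 of TRBV12-2 contigs took in 89.3% of joint contigs in WT (85.5–92.5) and 89.6% in Btla-/- (86.2–92.4). Of contigs called TRBV13-2 it took in 19.3% (11.4–29.4) and 11.8% (6.45–19.4). TRBV12-1 contigs had medians of 220 such bases in both libraries (quartiles 219 and 232 in WT, 216 and 231 in Btla-/-). All TRB chains outside the family had medians of 206 in WT (178 and 230) and 204 in Btla-/- (178 and 228). The most frequent length of joint contigs was 227 such bases in both libraries, with 25.3% of them in WT and 19.01% in Btla-/-. TRBV12-2 contigs also peaked there, with 27.98% and 30.21%. Of TRBV12-1 contigs, 1.418% and 0.8086% had 227 such bases, and their most frequent length was 220. Whether other V genes outside the family share the peak at 227 was not tested.

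**Figure D2:**
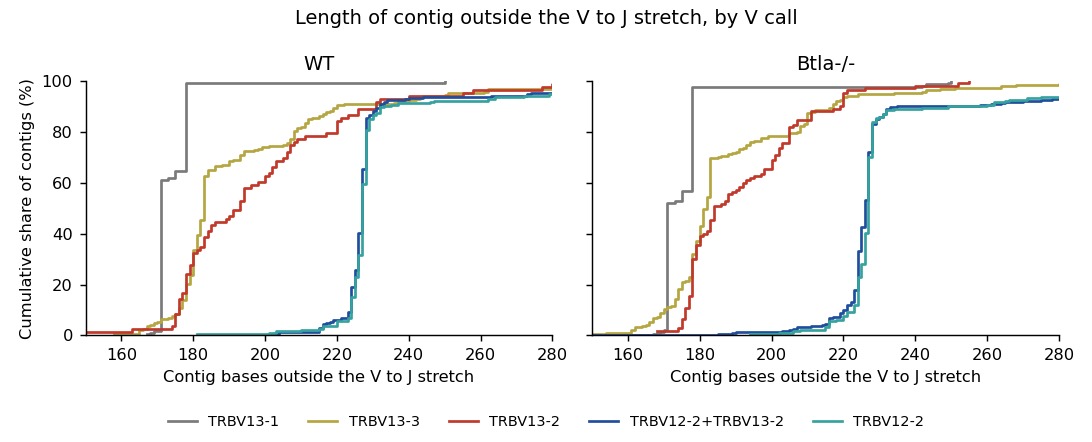
Cumulative share of contigs (%) against the number of contig bases outside the framework 1 to J stretch, one line per V call, WT on the left and Btla-/- on the right, drawn from 150 to 280 bases. The joint call follows TRBV12-2, with medians of 226–227 bases, while TRBV13-2 alone rises with TRBV13-3, between 178 and 208 bases at its quartiles.

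Some rearrangements were found under both calls. In WT, 11 chains with the TRBV13-2 V region (the same TRBJ gene and the same CDR3 bases) occurred in at least 2 cells. Of these, 7 always received the joint call, 2 always TRBV13-2, and 2 received one call in some cells and the other in the rest. In Btla-/- there were 25 such chains, with 15 under the joint call alone, 1 under TRBV13-2 alone and 9 under both. No single cell carried both calls. For 4 of the 11 chains with both calls, chosen for their cell numbers or α chains, the CDR3 is given with capitals over the run of bases that matches the germline end of TRBV13-2.
WT, TRBJ1-6: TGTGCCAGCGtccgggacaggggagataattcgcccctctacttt
WT, TRBJ2-7: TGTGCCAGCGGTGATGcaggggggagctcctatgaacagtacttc
Btla-/-, TRBJ2-2: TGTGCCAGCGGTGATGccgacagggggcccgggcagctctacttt
Btla-/-, TRBJ2-4: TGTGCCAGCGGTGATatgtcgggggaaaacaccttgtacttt

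Each of the WT chains was called TRBV13-2 in 1 cell and joint in 2. The TRBJ2-4 chain of Btla-/- was called TRBV13-2 in 2 cells and joint in 1. The TRBJ2-2 chain was called TRBV13-2 in 1 cell and joint in 1, each contig with 5 UMIs, and both cells held the same α chain, so that these cells shared a whole receptor. Within these chains the contig length separated the calls without overlap. In WT, the 2 contigs called TRBV13-2 had 175 and 184 bases outside the V to J stretch, and the 4 joint contigs had 226 to 344. In Btla-/- the 10 contigs called TRBV13-2 had 178 to 217 such bases and the 9 joint contigs 220 to 355. UMIs did overlap, with 2 to 28 per contig under TRBV13-2 and 4 to 20 under the joint call in Btla-/-. Whether contig length took part in the call was not tested.

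The share of the joint call also varied with UMIs per contig, with intervals apart between the lowest and highest bins in WT only. Among chains with the TRBV13-2 V region in WT, 27 of 40 contigs with 1 to 4 UMIs were joint (67.5%, 50.9–81.4), against 82 of 88 with 20 or more (93.2%, 85.8–97.5). In Btla-/- these shares were 68 of 88 (77.3%, 67.1–85.5) and 64 of 72 (88.9%, 79.3–95.1), with overlapping intervals. With 5 to 9 and 10 to 19 UMIs, 75.6% and 78.7% were joint in WT, and 75.7% and 78.6% in Btla-/-. In Btla-/- only the highest bin thus stood above the rest. By TRBJ cluster the intervals overlapped, since 73.3% (65.5–80.2) of chains with a TRBJ1 gene and 83.5% (78.5–87.8) of those with a TRBJ2 gene were joint in WT, and 74.1% (67.3–80.1) and 81.4% (76.7–85.5) in Btla-/-.

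At the start of CDR3, the family divided by its germline bases. The residues CASG opened 96.6% of joint chains in WT (94.1–98.3) and 95.8% in Btla-/- (93.4–97.5), and 96.4% (89.8–99.2) and 93.6% (87.3–97.4) of chains called TRBV13-2. Outside the family, 15 of 3289 chains in WT (0.456%, 0.256–0.751) and 16 of 4128 in Btla-/- (0.388%, 0.222–0.629) began this way. TRBV13-1 chains began with CASS in 86.6% (81.7–90.5) and 88.2% (84.3–91.4), a start that 74.2% and 75.5% of chains outside the family shared. TRBV13-3 chains kept CASS in 81.4% in WT (75.1–86.7) and 74.3% in Btla-/- (67.5–80.4), and began with CASR in 10.6% (6.62–15.95) and 16.2% (11.3–22.2).

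The fifth CDR3 residue was acidic in most family chains. Aspartate is encoded there in the germline end of all 3 genes, and aspartate or glutamate stood there in 60.7% of family chains in WT (57.3–64.0) and 62.7% in Btla-/- (59.7–65.6). Outside the family this held for 3.41% (2.81–4.08) and 3.29% (2.77–3.89). The joint call had the largest share, 69.2% in WT (63.9–74.2) and 66.7% in Btla-/- (61.8–71.2). TRBV13-1 followed with 62.8% (56.6–68.8) and 63.7% (58.4–68.8), and TRBV13-3 with 47.9% (40.5–55.3) and 52.9% (45.5–60.1). TRBV13-2 alone had 49.4% (38.2–60.6) and 61.8% (52.1–70.9).

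All 4 calls had intervals above those of all other TRB chains in both libraries. This comparison separated nearly every V gene, with 21 of 22 calls (95.5%) apart from the remaining chains the same way in both libraries, 5 of them higher. The fifth was TRBV20, at 40.9% (32.6–49.6) in WT and 33.3% (26.4–40.8) in Btla-/-, and its WT interval overlapped those of TRBV13-2 and TRBV13-3. The median over the 18 calls outside the family was 1.57% in WT and 1.84% in Btla-/-. The V call and the start of CDR3 are read from the same contig, and part of both is fixed by the same germline bases.

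**Figure D3:**
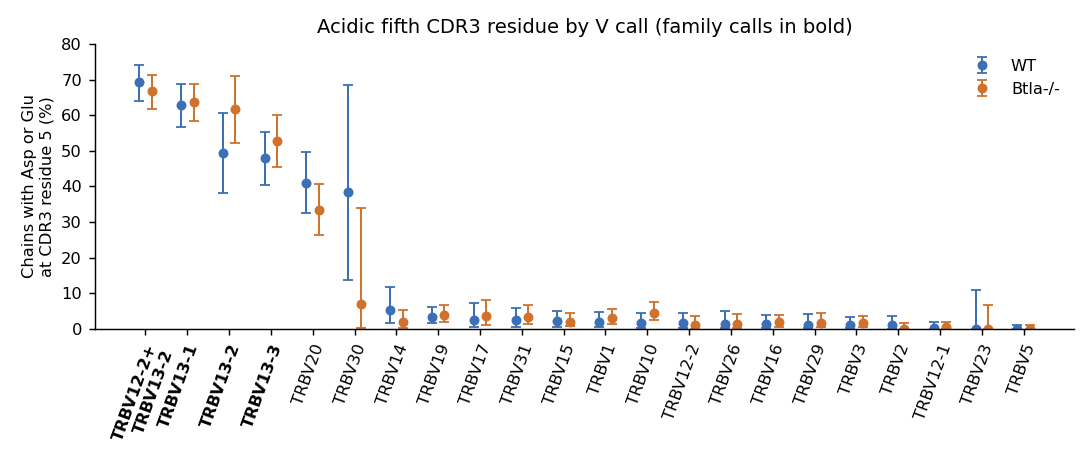
Share of chains (%) with aspartate or glutamate at the fifth CDR3 residue for each of the 22 TRBV calls, ordered by the WT value, with exact 95% intervals for WT and Btla-/-. The 4 family calls, in bold, lie between 47.9% and 69.2%, TRBV20 at 40.9% and 33.3%, and TRBV30, which had 13 and 14 chains, has wide intervals.

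The share of chains whose CDR3 opened with the whole germline V end differed between members. A D or added base equal to a trimmed base counts as kept here. These shares are therefore upper limits for untrimmed ends. All 16 germline bases were kept in 35.1% of joint chains in WT (29.9–40.5) and 32.3% in Btla-/- (27.8–37.1), beside 27.7% (22.3–33.6) and 29.1% (24.4–34.2) of TRBV13-1 chains. TRBV13-2 alone kept them in 26.5% (17.4–37.3) and 25.5% (17.6–34.6). TRBV13-3 kept them in 17.02% (11.9–23.2) and 19.4% (14.0–25.7), below the interval of the joint call in both libraries. Of chains outside the family whose V end could be placed on the genome, 23.6% (22.1–25.1) and 23.7% (22.4–25.1) kept the whole end. The joint call was the only one of the 4 with intervals apart from the remaining chains in both libraries. Over all V calls with a germline end, 13 of 21 (61.9%) were apart, so such a difference was common.

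The mean number of V bases kept ranged from 13.1 ± 2.08 (SD over 188 chains) for TRBV13-3 to 14.1 ± 2.0 (SD over 328 chains) for the joint call in WT, and from 13.1 ± 2.36 to 13.9 ± 1.96 for the same calls in Btla-/-. Between the V and J runs lay 10.5 ± 3.96 bases (SD over chains) in the family in WT and 10.5 ± 3.96 in Btla-/-, beside 10.5 ± 3.94 and 10.7 ± 4.01 outside it. The chains with no base between V and J were few, 5 in WT (0.587%, 0.191–1.36) and 3 in Btla-/- (0.285%, 0.0588–0.830). Outside the family the shares were 0.323% (0.155–0.593) and 0.288% (0.144–0.515), with overlapping intervals.

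CDR3 length differed little. TRBV13-1 chains averaged 14.3 ± 1.56 residues (SD over chains) in WT and 14.2 ± 1.49 in Btla-/-, joint chains 14.3 ± 1.58 and 14.3 ± 1.55, TRBV13-2 chains 14.1 ± 1.92 and 14.1 ± 1.80 and TRBV13-3 chains 13.9 ± 1.44 and 14.0 ± 1.46. Chains outside the family averaged 14.2 ± 1.495 and 14.3 ± 1.51, so the means lay within 1 residue of each other and well inside the spread between chains. At the long end, 10.1% of TRBV13-3 chains in WT had 16 or more residues (6.19–15.3), against 18.1% outside the family (16.8–19.4). In Btla-/- the shares were 14.1% (9.53–19.9) and 19.6% (18.4–20.8), with overlapping intervals. No family call was apart from all other TRB chains in both libraries in this share, where 5 of 22 calls (22.7%) were.

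The family used the TRBJ genes much as other chains did. TRBJ2-7, the last gene of the second cluster, was the most used, with 17.1% of family chains in WT (14.7–19.8) and 15.95% in Btla-/- (13.8–18.3), beside 15.6% (14.4–16.9) and 14.5% (13.5–15.6) outside the family. By member, TRBJ2-7 led in the joint call in WT (62 of 328 chains), in TRBV13-2 (15 of 83) and in TRBV13-3 (31 of 188), and it tied with TRBJ2-5 in TRBV13-1 (38 of 253 each). In Btla-/- it led in TRBV13-1 (66 of 347), while TRBJ2-5 led in the joint call (65 of 405, against 63 with TRBJ2-7), TRBJ1-1 in TRBV13-3 (28 of 191), and TRBJ1-1 and TRBJ2-3 in TRBV13-2 (16 of 110 each). In each member and library the intervals of first and second place overlapped.

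None of the 48 pairs of a family call and a TRBJ gene had intervals apart from other chains the same way in both libraries, where 3 of the 264 pairs of any TRBV call and a TRBJ gene (1.14%) did. In WT alone 2 pairs were apart, TRBV13-2 higher with TRBJ1-6 (9 of 83 chains) and TRBV13-3 lower with TRBJ2-1, and in Btla-/- alone 1 pair, the joint call higher with TRBJ2-5. The share of pairs apart in a single library over all TRBV calls was not recorded, so these counts stand without a background. The total variation distance between the TRBJ use of the family and that of other chains, which is 0 for equal use and 1 for no overlap, was 0.0775 in WT and 0.0399 in Btla-/-. By the same distance summed over both libraries, TRBV5 (0.0936 in WT and 0.0588 in Btla-/-) and TRBV2 (0.0777 and 0.107) were the most like the family, among 17 other TRBV genes with at least 1% of chains in either library. In single libraries the order differed. In WT, TRBV1 (0.0721) and TRBV31 (0.0730) were nearer than both. In Btla-/- several genes were nearer than TRBV2, among them TRBV16 (0.0691) and TRBV12-2 (0.0923). The distance of the family in WT from the family in Btla-/- was 0.0578, so the order of genes is a loose one.

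**Figure D4:**
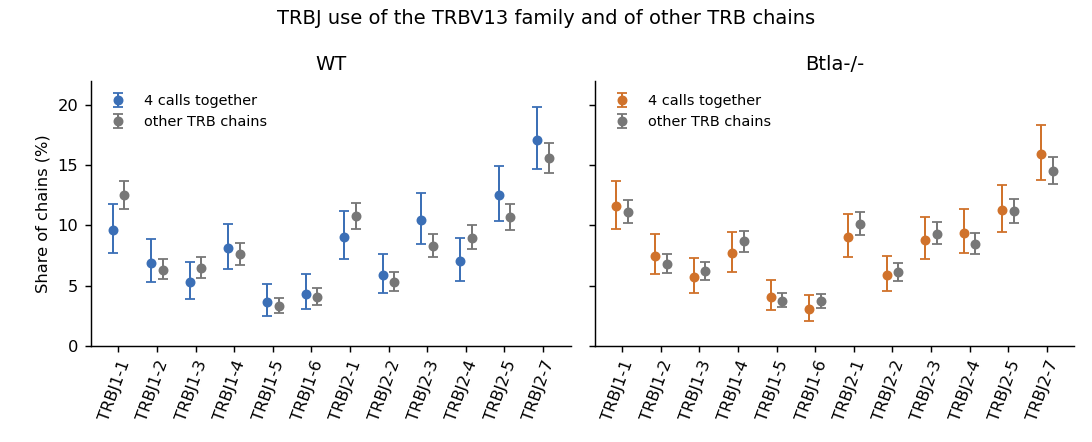
Share of chains (%) with each of the 12 TRBJ genes, for the 4 family calls together (coloured) and all other TRB chains (grey), with exact 95% intervals, WT on the left and Btla-/- on the right. The intervals of family and other chains overlap for every gene in both libraries, and TRBJ2-7 is the most used gene in each.

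The 2 calls with the TRBV13-2 V region were also compared by TRBJ cluster. TRBJ1 genes were joined in 48.2% of TRBV13-2 chains in WT (37.1–59.4) and 45.5% in Btla-/- (35.9–55.2), against 33.5% (28.4–38.9) and 35.3% (30.7–40.2) of joint chains. The order was the same in both libraries, but the intervals overlapped in each. In WT, CASGD opened 36.1% of chains called TRBV13-2 (25.9–47.4) and 55.5% of joint chains (49.9–60.9), with intervals apart, whereas in Btla-/- the shares were 52.7% (43.0–62.3) and 51.1% (46.1–56.1).

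An α chain was recovered in 375 of 846 family cells in WT (44.3%, 40.9–47.7) and 385 of 1046 in Btla-/- (36.8%, 33.9–39.8), beside 41.0% (39.3–42.8) and 34.0% (32.6–35.5) of cells with other TRB chains. TRAV6 was the most frequent subgroup among the α chains of family cells in WT, 75 of 414 (18.1%, 14.5–22.2), and TRAV7 in Btla-/-, 61 of 412 (14.8%, 11.5–18.6). In WT TRAV6 led with the joint call (28 of 151 α chains), TRBV13-1 (24 of 125) and TRBV13-3 (21 of 102), and TRAV12 with TRBV13-2 (7 of 43). In Btla-/- TRAV7 led with the joint call (27 of 162) and TRBV13-1 (18 of 135), TRAV6 with TRBV13-3 (14 of 80) and TRAV13 with TRBV13-2 (8 of 42). That share of TRAV6 with TRBV13-3, 17.5%, was 8.11% once contigs under 3 UMIs were dropped. This filter left fewer than the 80 α chains, a number not recorded. On average, α contigs rested on fewer UMIs than β contigs. Of 80347 UMIs in WT, 72650 lay on 4141 TRB contigs and the rest on 1862 α contigs. In Btla-/-, 69417 of 75456 lay on 5181 TRB contigs and the rest on 1920 α contigs.

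None of the 80 pairs of a family call and a TRAV subgroup had intervals apart from cells with other chains, in either library. Over all TRBV calls the count in both libraries was 0 of 440 pairs (0%), so at this number of α chains the measure separated no V call.

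The V and J genes of the invariant α chain of NKT cells, TRAV11 with TRAJ18, were found together in 8 cells in WT and 9 in Btla-/-. These cells were taken by the genes alone, and the α chain CDR3 was not checked. In WT, 6 of the 8 carried a family chain (75%, 34.9–96.8), of which 3 were joint and 1 each TRBV13-1, TRBV13-2 and TRBV13-3, and the others carried TRBV29 and TRBV1. In Btla-/-, 3 of the 9 did (33.3%, 7.49–70.1), with 2 joint and 1 TRBV13-1, while 4 carried TRBV29, 1 TRBV15 and 1 TRBV5. Among all cells with an α and a β chain the family share was 22.4% in WT (20.4–24.5) and 22.2% in Btla-/- (20.3–24.2), which lies below the interval for these cells in WT and within it in Btla-/-. TRAV1 with TRAJ33, the genes of the α chain of mucosal-associated invariant T cells, was taken in the same way. It was found in 2 WT cells and 1 Btla-/- cell, none of which held a family chain.

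UMIs per contig differed between members. TRBV13-1 contigs had a median of 18 in WT (quartiles 10 and 27) and 14 in Btla-/- (9 and 21), the second highest and the highest of the calls with at least 1% of chains. TRBV13-2 alone was near the bottom, with 9 (6 and 14) and 7 (5 and 11), and TRBV13-3 had 11 (7 and 15) and 9 (6 and 14). Other TRB chains had medians of 13 and 10. Set against these, TRBV13-1 stood at 1.39 and 1.40 times their median, TRBV13-3 at 0.846 and 0.900 and TRBV13-2 at 0.692 and 0.700 in WT and Btla-/-, close in both libraries. The joint call moved more, from 13 UMIs (8 and 19.2), equal to the median of other chains, in WT to 8 (6 and 14) and 0.800 times in Btla-/-. Contigs called TRBV12-2 had 14 and 12, or 1.08 and 1.20 times. The UMI quartiles of all these calls overlapped. By reads in place of UMIs, TRBV13-1 stood at 1.54 and 1.57 times the median of other chains and TRBV13-3 at 0.955 and 1.05. TRBV13-2 stood at 0.762 and 0.940, less close between libraries, and the joint call at 0.957 and 0.872. At least 3 UMIs backed 97.9% of family contigs in WT (96.7–98.7) and 97.6% in Btla-/- (96.5–98.5).

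**Figure D5:**
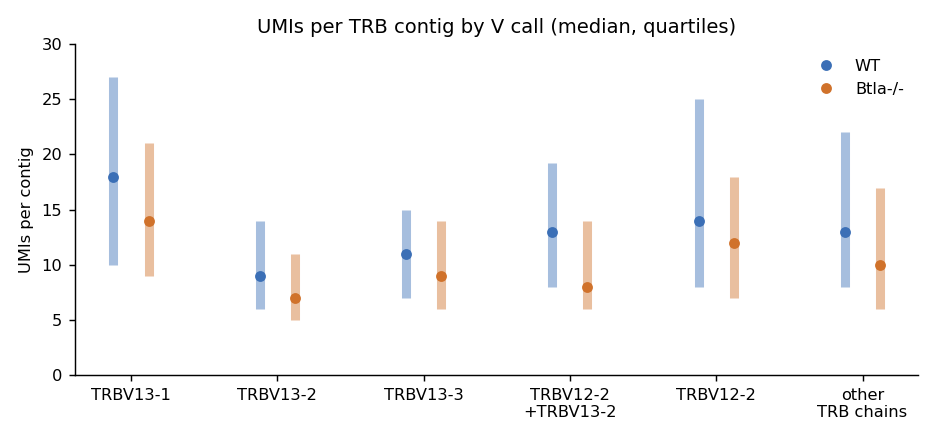
UMIs per TRB contig by V call, with the median (point) and the quartiles (bar) over contigs in each library. TRBV13-1 has the highest medians of those drawn, 18 in WT and 14 in Btla-/-, TRBV13-2 alone the lowest, 9 and 7, and the bars of all calls overlap.

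Repeated chains were found with every member. Of TRBV13-1 chains, 25 of 253 in WT (9.88%, 6.50–14.2) and 35 of 347 in Btla-/- (10.1%, 7.13–13.7) shared TRBJ gene and CDR3 bases with a chain in another cell of the library, beside 6.78% (5.95–7.69) and 8.89% (8.04–9.80) outside the family, with overlapping intervals. The other calls had lower shares in WT and Btla-/-, 6.40% and 7.41% for the joint call and 4.26% and 7.33% for TRBV13-3. TRBV13-2 had 4.82% and 3.64%, and the 4 calls together 7.04% and 9.50%. All their intervals overlapped those outside the family. The largest set was of 4 cells in WT, found once each with the joint call and TRBV13-3, and of 3 cells in Btla-/-. Between the libraries, 4 family CDR3s agreed in V region, TRBJ gene and all residues, 3 with the TRBV13-2 V region and 1 with TRBV13-1, and none agreed in bases. Chains with such a match made up 0.470% of family chains in WT (0.128–1.20) and 0.380% in Btla-/- (0.104–0.970). Outside the family the shares were near these, 0.578% (0.348–0.901) and 0.436% (0.259–0.688).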

How the data were processed

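TCR contigs of 1 WT and 1 Btla-/- library were analysed. The authors assembled and annotated them with Cell Ranger 7.2.0 on GRCm38, and the deposited files hold raw read and UMI counts and the length in bases of the high-confidence, full-length, productive contigs of called cells. The authors' 3 deposited summary tables (V gene shares, CDR3 lengths and gene combinations) were not used. V calls were taken as deposited. Germline V and J ends were read from GRCm38 with GENCODE gene models, for 21 of the 22 TRBV calls (TRBV10 was left out of comparisons of V ends). Kept V bases are the run from the start of CDR3 that equals the germline end.

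Shares and exact intervals were computed in Python 3.11.15 with pandas 2.3.3 and SciPy 1.17.1. The interval was tested on simulated binomial counts, and the counting of kept V and J bases on simulated chains. In these chains no added base continued the germline run, so matches of that kind were not covered by the test. The WT library had 72650 TRB UMIs and the Btla-/- library 69417. Cells with more than 1 TRB chain (132 in WT, 167 in Btla-/-) gave each chain once, and no doublets were called or removed. Intervals are called apart where they do not overlap. The alternatives restricted contigs by UMIs (at least 3), cells to 1 α and 1 β chain, and chains to distinct ones, dropped shared barcodes, took 1 TRB chain per cell, or counted UMIs, reads, TRBJ clusters or median lengths. Besides the members, the named genes were the most used TRBJ gene and TRAV subgroup of each, any with intervals apart in both libraries, the 2 TRBV genes most like the family in TRBJ use, the TRBV12 neighbours and the invariant α chains. TRBV1, TRBV16 and TRBV31 in the TRBJ comparison, TRBV20, TRBV30 and the TRBJ pairs apart in 1 library, were named after their values were seen. The members, gene lists and comparisons were chosen with earlier results of these data known.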

Additional observations from a re-analysis of the deposited data

How the results depend on the processing

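Under the alternatives, 267 of 281 recomputed values stayed within their interval, their SD over chains or, for ratios and distances, a factor of 1.5. The SD over chains, used for mean CDR3 lengths, is a wide band that a subset of the same chains could hardly leave. The lengths within that count therefore say little about stability. The factor of 1.5 is wide as well. It took in a ratio of 0.700 by UMIs and 0.940 by reads for TRBV13-2 against other chains in Btla-/-. With UMIs as the unit, the share of TRBV13-1 was 7.73% in WT and 8.62% in Btla-/-, that of TRBV13-2 1.24% and 1.46%, and that of TRBV13-3 3.56% in WT, and TRBV13-1 stood above the joint call (7.52% and 7.196%) in both libraries, the reverse of their order by chains. In cells with exactly 1 chain of each kind, TRBV13-1 had 5.87% in Btla-/-, with CASS in 83.7% and TRBJ1 genes in 31.4% of its chains, CASG opened 93.9% of joint chains in WT, and the TRBJ distance of the family was 0.121 in WT and 0.0672 in Btla-/-. By TRBJ cluster that distance was 0.0241 and 0.00661. With at least 3 UMIs, TRAV6 made up 8.11% of the fewer α chains left with TRBV13-3 in Btla-/-. The cause was not tested for the values in cells with 1 chain of each kind, which are fewer. Leaving out shared barcodes or counting each distinct chain once moved none of the 62 values each. The counts of 0 member pairs with a TRBJ gene or a TRAV subgroup stayed at 0 wherever recomputed. With 1 library per genotype, no replicate could be left out and no paired analysis was possible because neither genotype has a second library. An α chain was recovered in 44.3% of family cells in WT and 36.8% in Btla-/-, which limits the numbers behind the TRAV comparisons.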
